A study of Mus musculus with 6 samples.

Results

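The 10 genes described here are the cyclins that drive the G1 phase of the cell cycle (Ccnd1, Ccnd2, Ccnd3, Ccne1 and Ccne2), the retinoblastoma gene Rb1, and 4 genes for inhibitors of cyclin-dependent kinases (Cdkn2a, Cdkn2b, Cdkn2c and Cdkn1b). They were chosen by symbol, with earlier results of these data known. All 10 were found among the 22933 genes of the deposited table by their Ensembl identifiers. The RNA came from mouse embryonic stem cells with Ezh2 fl/fl alleles, sequenced as total RNA. Ezh2 encodes the catalytic subunit of Polycomb repressive complex 2, which methylates histone H3 at repressed genes. Untreated cells (3 libraries) carry the floxed alleles and are labelled Ezh2 wild type. The other 3 libraries are from the same floxed cells after 800 nM 4-hydroxytamoxifen for 96 h, labelled Ezh2 KO, with RNA taken 4 days after treatment. Both groups grew on gelatin with fetal calf serum, serum replacement and leukaemia inhibitory factor, and the source of the Cre activity, the number of clones and the floxed exons are not given in the labels.

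Progress through G1 is set by a balance of kinases and their inhibitors. The D cyclins activate Cdk4 and Cdk6 and the E cyclins activate Cdk2, and these kinases phosphorylate RB, the Rb1 product, which otherwise holds E2F transcription factors and blocks entry into S phase. The Ink4 proteins (products of Cdkn2a, Cdkn2b and Cdkn2c) bind Cdk4 and Cdk6, while Kip1, the Cdkn1b product, mainly inhibits Cdk2 complexes. Mouse embryonic stem cells are known for a short G1, abundant cyclin E and RB that is largely kept phosphorylated, and the Ink4/Arf locus of Cdkn2a and Cdkn2b is a well-known Polycomb target in differentiated cells.

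The comparison of the groups asks how far the RNAs of this machinery differ after treatment meant to delete Ezh2. No library came from tamoxifen-treated cells without floxed Ezh2. Effects of the drug, of Cre activity and of Ezh2 loss therefore cannot be told apart. None of the 10 genes was called between the groups, and the retinoblastoma gene had the smallest p. Rb1 was higher in all 3 tamoxifen libraries, with a log2 fold change of 0.78 on the deposited values and 1.16 on the reads recovered from them. Ccnd3 and Ccnd2 were higher in all 3 tamoxifen libraries on the deposited values, but their groups overlapped on reads. The 3 Ink4 genes rested on 1 to 14 reads a library, and differences between the groups were not detectable at this depth.

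CpG-dense promoters are typical binding sites of Polycomb repressive complex 2, so promoter windows of 3 members are shown. The windows below run from 250 to 51 bases before each RefSeq start (GRCm38.p6), 5′ to 3′ on the gene's strand, with CpG pairs in capitals. They set the CpG-dense upstream Cdkn2a start, whose transcript encodes Arf, beside its downstream start, which encodes Ink4a, then the neighbouring Cdkn2b, and finally Ccne1, the most abundant of the 10 per length.
Cdkn2a upstream start, chr4:89294670-89294869, minus strand: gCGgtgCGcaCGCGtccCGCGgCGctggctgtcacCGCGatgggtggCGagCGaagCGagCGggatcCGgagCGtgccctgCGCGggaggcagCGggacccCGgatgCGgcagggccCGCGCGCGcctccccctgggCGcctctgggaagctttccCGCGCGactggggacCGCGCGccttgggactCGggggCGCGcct
Cdkn2a downstream start, chr4:89282243-89282442, minus strand: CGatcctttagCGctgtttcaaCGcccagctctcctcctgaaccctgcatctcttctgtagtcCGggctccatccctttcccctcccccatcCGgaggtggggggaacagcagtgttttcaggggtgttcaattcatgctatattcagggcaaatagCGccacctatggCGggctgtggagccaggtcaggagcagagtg
Cdkn2b, chr4:89311083-89311282, minus strand: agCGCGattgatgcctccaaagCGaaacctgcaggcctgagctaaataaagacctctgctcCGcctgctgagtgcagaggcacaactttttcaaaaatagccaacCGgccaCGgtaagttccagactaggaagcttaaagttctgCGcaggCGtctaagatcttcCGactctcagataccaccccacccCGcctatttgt
Ccne1, chr7:38107541-38107740, minus strand: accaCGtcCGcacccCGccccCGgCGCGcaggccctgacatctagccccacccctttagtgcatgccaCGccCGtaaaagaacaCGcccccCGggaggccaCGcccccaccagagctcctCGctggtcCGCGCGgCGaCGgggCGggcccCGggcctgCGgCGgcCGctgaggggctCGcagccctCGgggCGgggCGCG
The upstream Cdkn2a window holds 34 CpG pairs, more than 99.2% of 32514 RefSeq windows of the same length, whose median is 4. The downstream Cdkn2a window holds 7 and that of Cdkn2b holds 10, more than 61.4% and 70.5% of windows. The Ccne1 window holds 27, more than 96.4% of windows, and the Cdkn1b window 25, more than 95.1%. Windows were also searched on both strands for E2F words (TTTGGCGC, TTTCCCGC, TTTGCCGC or TTTCGCGC, found in 1.47% of all windows) and for the GC box GGGCGG (24.8%). The E2F words hold CpG pairs, as does the GC box. The upstream Cdkn2a window holds TTTCCCGC, its first base 99 bases before the start, and the Ccne1 window holds 3 GC boxes. Such matches describe letters only. RefSeq windows were matched for Cdkn2a, Cdkn2b, Cdkn2c, Cdkn1b, Ccnd3 and Ccne1.

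The deposited values are normalized by the submitters and are not reads. Each value above 0 equals a constant times k × (m + 0.1) / (k + 0.1) for whole numbers k and m, and k was taken as the reads of the gene. Sorted by size, the m of the 6 libraries differed by at most 4. A deposited value thus mostly marks the rank of a gene's m within its library. Recovered reads came to between 2334448 and 5689666 per library, and 10127 to 12686 genes had 10 reads or more. Untreated replicate 3 stood apart, with 36.7% of its reads in its 10 most abundant genes against 20.2% to 32.4% in the others. Ezh2 stayed at 2258 to 2609 in the tamoxifen libraries against 3483 to 4165 in the untreated ones. This was a log2 difference of -0.60 (limma adjusted p 0.195), so Ezh2 signal remained after treatment. The value covers the whole gene and the floxed exons are not given, so it cannot show whether intact Ezh2 RNA remained. All 10 embryonic stem cell markers were detected, with summed levels of 1682 to 1791 RPM (recovered reads scaled to library size) in untreated and 1433 to 1590 in tamoxifen libraries. Primitive endoderm markers summed to 325 to 365 and 642 to 774 RPM, and 9 of 10 were higher in every tamoxifen library on the deposited values, as were 7.92% of all genes. Trophoblast markers summed to 61.3 to 116 and 121 to 161, and fibroblast markers to 9.38 to 17.0 and 14.3 to 19.6, with Lum at 0 in all 6. The part of these other cell types in the differences below was not tested, and in bulk RNA fewer cells of a type and less RNA per cell cannot be told apart.

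Values were tested as log2(value + 1) with limma over 17427 genes of mean value 10 or more, and "called" means an adjusted p (Benjamini-Hochberg over all genes tested) below 0.05. All 10 genes passed this filter on values, and 7 of them averaged 10 reads or more. None of the 10 was called, where 0.195% of all genes were, and 2 had an unadjusted p under 0.05, as did 1627 of the 17427 genes. On recovered reads 0 were called too, where 5 of all genes were. There 1 had an unadjusted p under 0.05, as did 1347 of the 17427. The log2 fold change was positive for 6 genes and negative for 4, with a median of 0.26 against -0.004 over all genes. In 3 genes every tamoxifen value lay above every untreated value, as in 7.92% of all genes, and in 0 genes below, as in 7.33%. On RPM 1 gene was higher in this sense, beside 6.59% of all genes, and 0 were lower, beside 6.52%. Because the genes were chosen with earlier results of these data known, an excess over these shares is no independent evidence. The labels do not say whether replicates were separate cultures, so these p-values measure the spread between the libraries.

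**Figure D1:**
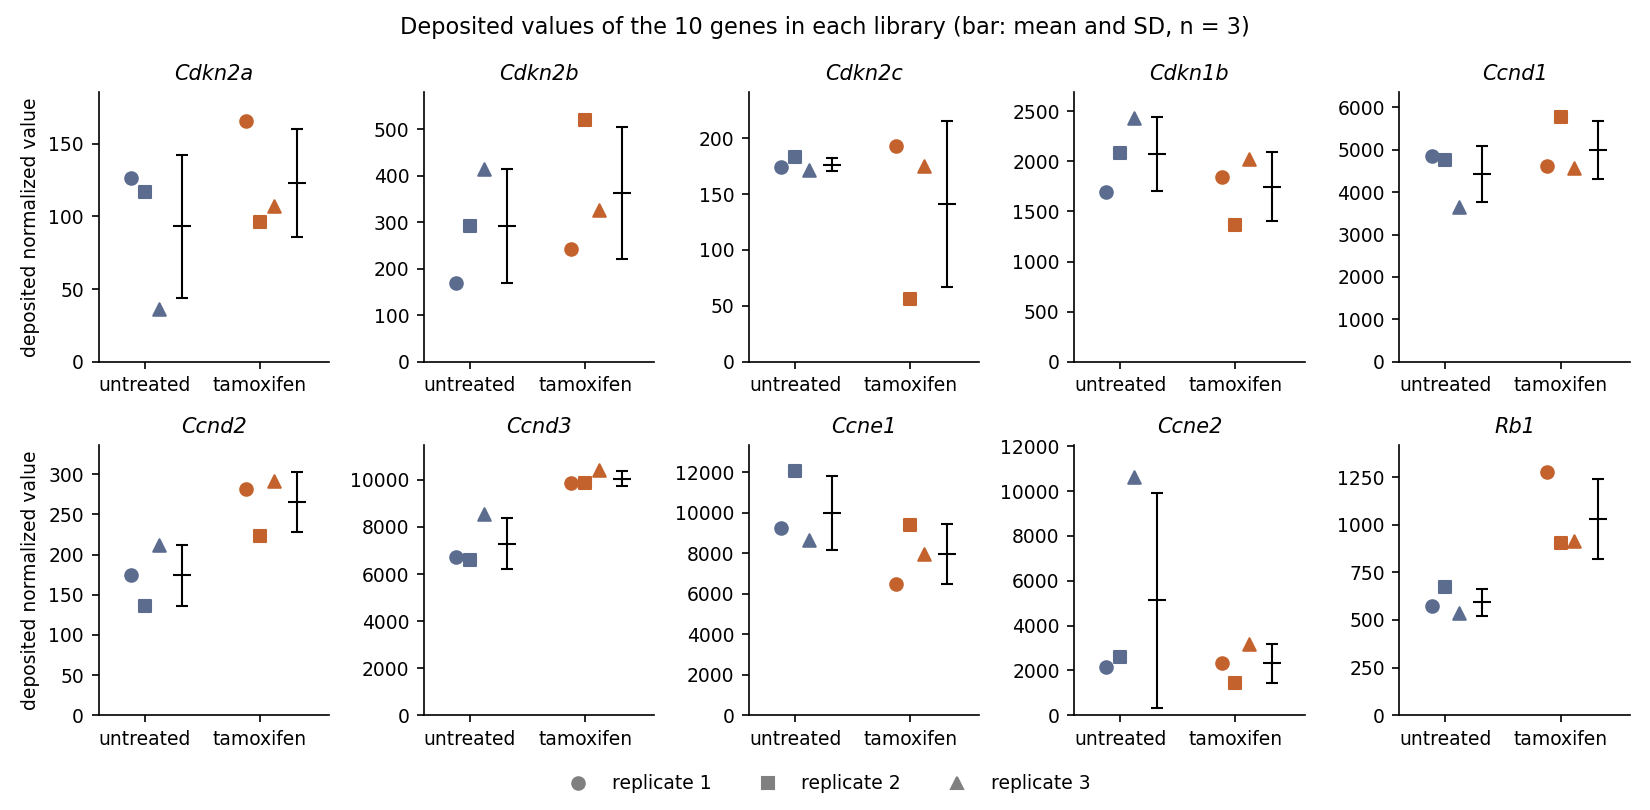
Deposited normalized value (vertical axis, from 0, arbitrary units) of each of the 10 genes in the 3 untreated and 3 tamoxifen libraries, with the mean and SD (n = 3) beside the points. Rb1, Ccnd2 and Ccnd3 separate the groups, the 3 Ink4 genes do not, and untreated replicate 3 holds the single high Ccne2 value of 10643.

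Rb1 encodes the pocket protein that restrains E2F. The gene (ENSMUSG00000022105) lies on chromosome 14 from 73183673 to 73325822, minus strand, GRCm38. Its deposited values were 574.6, 671.6 and 534.2 in untreated replicates 1 to 3 and 1275, 905.2 and 915.3 in tamoxifen replicates 1 to 3. The lowest tamoxifen value thus lay above the highest untreated value. Means were 593.5 ± 70.6 and 1032 ± 210.5 (SD, n = 3). By limma this was a log2 change of 0.78 (95% interval 0.33 to 1.24, limma p 0.00541, adjusted p 0.305), so Rb1 was not called. Among genes with 10 reads or more on average, the limma adjusted p was 0.192.

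The reads behind Rb1 separated the groups as well. Recovered reads were 101, 80 and 27 in untreated and 134, 119 and 215 in tamoxifen libraries. As RPM they came to 22.9, 14.7 and 15.1 against 40.5, 39.9 and 35.1. No library of either group fell inside the range of the other. On reads the log2 difference was 1.16 (95% interval 0.65 to 1.67, limma p 0.000354, adjusted p 0.158). With each library's trends of reads on GC content and transcript length removed, an alternative added after the data were seen, it was 1.07 (0.74 to 1.40, limma adjusted p 0.0275). That fit called Rb1 and 0 of the other 6 members it tested, where 0.252% of 11494 genes were called higher. The call held when untreated replicate 1 was left out (adjusted p 0.0432) and was lost when any of the other 5 libraries was left out (adjusted p 0.0685 to 0.213), while the log2 difference stayed between 1.01 and 1.10. In the same fit 3 of 8 primitive endoderm markers were called higher (Dab2, Col4a1 and Col4a2), and their part in the Rb1 difference was not tested. Rb1 shares 488 exonic bases, 8.11% of its exons, with Rcbtb2 on the opposite strand, whose log2 fold change was -0.05. It shares a further 408, 6.78%, with Lpar6, also opposite, which had 0 or 1 reads in each library. Whether counting used strand is not stated.

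**Figure D2:**
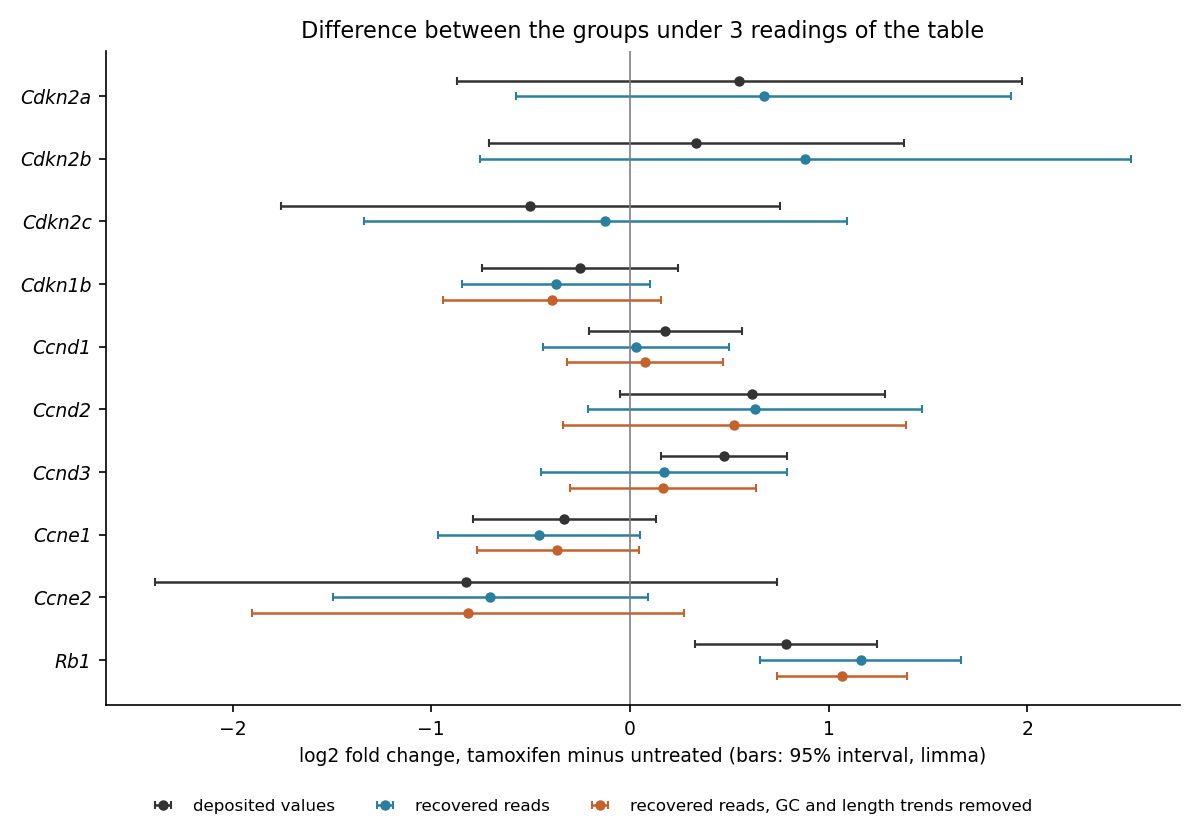
Log2 fold change, tamoxifen minus untreated, with its 95% limma interval, for the deposited values, the recovered reads, and the reads with GC and length trends removed (7 genes with 10 reads or more on average). The 3 intervals of Rb1 all lie above 0, that of Ccnd3 does so for the deposited values alone, and the others include 0.

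Among the D cyclins, Ccnd3 and Ccnd2 were higher on the deposited values and Ccnd1 was not separated. Ccnd3 (ENSMUSG00000034165, chromosome 17, 47505051 to 47599691, plus strand, GRCm38) encodes cyclin D3. Its values were 6713, 6608 and 8561 in untreated and 9876, 9875 and 10412 in tamoxifen libraries. The groups did not overlap. The tamoxifen values lay close together, which means similar ranks of m in those libraries rather than equal read levels. On the log2 scale the tamoxifen group differed by 0.47 (95% interval 0.16 to 0.79, limma p 0.0103, adjusted p 0.361). On reads the picture was less clear, with 62.0, 119.0 and 137.5 RPM in untreated and 117.7, 96.7 and 126.7 in tamoxifen libraries. Only untreated replicate 1 was low, and the groups overlapped. Read-based, the log2 difference was 0.17 (95% interval -0.45 to 0.79). In that replicate the deposited value per recovered read, the weight of a read, was 3.11 times the library's median for Ccnd3, against 1.48 to 2.79 times in the other 5. Of the 40-base runs in Ccnd3 exons, 3.13% also occur in genes elsewhere, and reads from such stretches could be shared.

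Ccnd2 (ENSMUSG00000000184, chromosome 6, 127125162 to 127152193, minus strand, GRCm38) encodes cyclin D2 and was the lowest of the 10 per length. Its values were 174.7, 136.3 and 212.4 in untreated and 281.7, 222.8 and 292.1 in tamoxifen libraries. The groups were separated by a narrow gap, between untreated replicate 3 and tamoxifen replicate 2. Its fitted log2 difference came to 0.62 (95% interval -0.05 to 1.28, limma p 0.0647, adjusted p 0.55). It rested on 12, 15 and 8 reads in untreated and 19, 11 and 37 in tamoxifen libraries, and on RPM the groups overlapped.

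Ccnd1 (ENSMUSG00000070348, chromosome 7, 144929931 to 144939925, minus strand, GRCm38) encodes cyclin D1. Its values were 4845, 4749 and 3657 in untreated and 4612, 5779 and 4574 in tamoxifen libraries. Tamoxifen replicate 2 was the highest and untreated replicate 3 the lowest, and the other 4 lay within a narrow range. By limma this was a log2 change of 0.18 (95% interval -0.21 to 0.56, limma adjusted p 0.766), and 0.03 on reads. Ccnd1 shares 1100 exonic bases, 23.4% of its exons, with LTO1 on the opposite strand. The groups did not overlap for LTO1 on the deposited values (log2 difference 0.48, limma adjusted p 0.361), but overlapped on reads. Reads of the pair cannot be told apart if strand was not used.

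The mix of D cyclins within a library does not depend on how libraries are scaled. Of D cyclin reads per kb of exon, Ccnd1 took 63.0%, 57.1% and 43.2% in untreated and 49.3%, 58.5% and 47.8% in tamoxifen libraries, means of 54.4 ± 10.2 and 51.9 ± 5.77 (SD, n = 3). The Ccnd3 share was 35.5%, 42.1% and 55.2% against 48.5%, 40.1% and 49.97%. Per kb, Ccnd1 and Ccnd3 thus made up nearly all of the total, and which of them led differed between libraries of both groups. That lead depends on the length used, the union of all annotated exons, 8775 bases for Ccnd3 and 4709 for Ccnd1. Without length Ccnd3 had more reads in every library. Its reads were 274, 651 and 250 in untreated and 391, 289 and 777 in tamoxifen libraries. Those of Ccnd1 were 261, 474 and 105 against 213, 226 and 399. The Ccnd2 share was 1.45%, 0.904% and 1.65% against 2.20%, 1.42% and 2.22%. No share was separated between the groups, with two-sided exact permutation p of 0.9 for Ccnd1, 0.9 for Ccnd3 and 0.3 for Ccnd2, where 3 against 3 libraries allow 0.1 at the lowest.

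**Figure D3:**
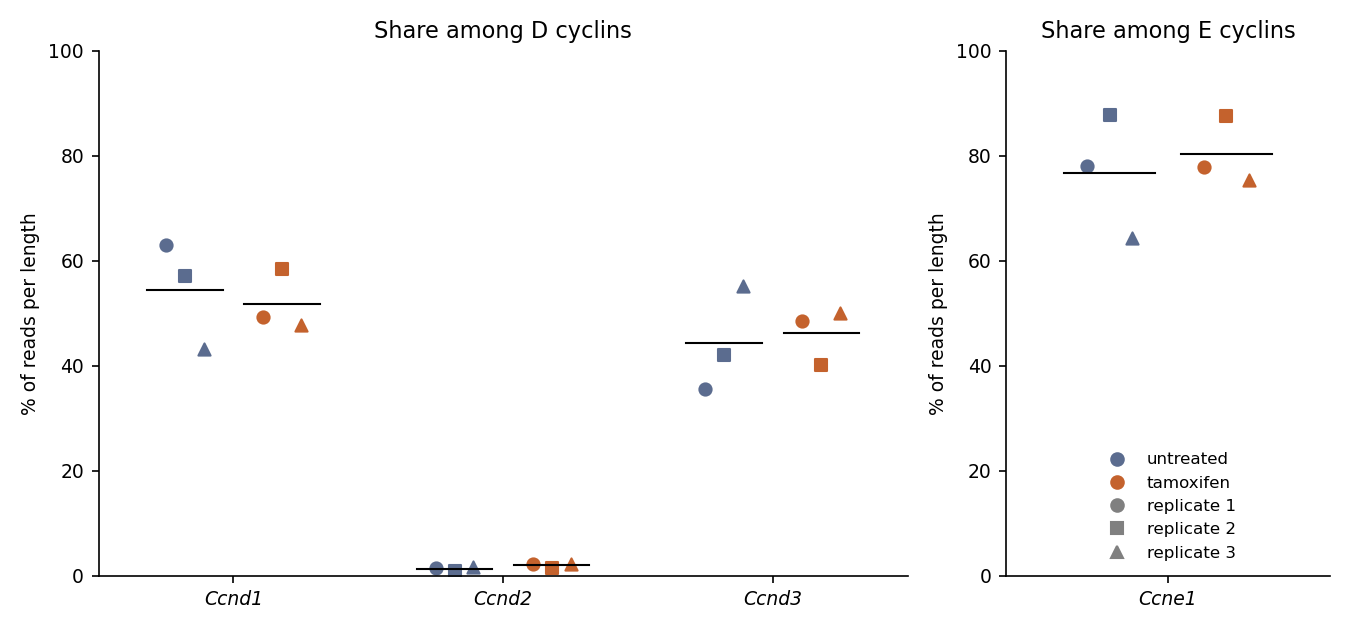
Share of each D cyclin among D cyclin reads per kb of exon, and of Ccne1 among E cyclin reads per kb, in percent for each library, with a line at the mean of 3. Per kb, Ccnd1 and Ccnd3 trade places between libraries, Ccnd2 stays between 0.904% and 2.22%, and Ccne1 between 64.3% and 87.7%.

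Both E cyclin genes had negative fold changes that did not pass the test. Ccne1 (ENSMUSG00000002068, chromosome 7, 38097984 to 38107534, minus strand, GRCm38) encodes cyclin E1. Its values were 9254, 12077 and 8679 in untreated and 6490, 9419 and 7980 in tamoxifen libraries. Tamoxifen replicate 2 lay above 2 of the 3 untreated libraries, so the groups overlapped. On the log2 scale the tamoxifen group differed by -0.33 (95% interval -0.79 to 0.13, limma adjusted p 0.654), and -0.46 on reads. Ccne1 was counted on 341 to 1456 reads a library.

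Ccne2 (ENSMUSG00000028212, chromosome 4, 11191351 to 11204779, plus strand, GRCm38) encodes cyclin E2. Its values were 2131, 2598 and 10643 in untreated and 2316, 1440 and 3182 in tamoxifen libraries. Untreated replicate 3 stood far above the other 5, which overlapped. A log2 difference of -0.82 (95% interval -2.39 to 0.74, limma adjusted p 0.75) became -0.10 without that library. Its level of 136.9 RPM was also the highest, against 63.4 and 49.0 in untreated and 47.1, 32.2 and 65.1 in tamoxifen libraries. The submitters' normalization then weighted 1 Ccne2 read there by 2.02 times the library's median weight, against 0.965 to 1.41 times in the others. Ccne2 has the lowest GC content of the 10 genes, 36.3%, and shares 609 exonic bases, 17.4% of its exons, with Ints8 on the opposite strand (log2 fold change -0.37). Of E cyclin reads per kb, Ccne1 took 78.0%, 87.7% and 64.3% in untreated and 77.8%, 87.6% and 75.4% in tamoxifen libraries. It was the larger of the pair in all 6 libraries, and its share was not separated between groups (two-sided exact permutation p 0.9).

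Of the inhibitors, Cdkn1b alone was counted well. Cdkn1b (ENSMUSG00000003031, chromosome 6, 134920401 to 134925513, plus strand, GRCm38) had values of 1693, 2082 and 2430 in untreated and 1848, 1361 and 2024 in tamoxifen libraries. Tamoxifen replicate 2 was the lowest and the other libraries were mixed. Its fitted log2 difference came to -0.25 (95% interval -0.74 to 0.24, limma adjusted p 0.757), on 62 to 186 reads a library.

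Cdkn2a (ENSMUSG00000044303, chromosome 4, 89274471 to 89294653, minus strand, GRCm38) encodes Ink4a and, in another reading frame, Arf, which protects p53 from Mdm2. Its values were 126.3, 116.5 and 36.3 in untreated and 165.2, 96.4 and 107.0 in tamoxifen libraries. They stand on 11, 9 and 1 reads against 14, 5 and 11, and the groups overlapped. The reads of tamoxifen replicate 3 had another possible solution. By limma this was a log2 change of 0.55 (95% interval -0.87 to 1.97, limma adjusted p 0.772), and -0.02 without untreated replicate 3. In GENCODE vM21 the transcripts from the upstream and downstream starts printed above share 575 bases and have 320 and 277 of their own. The table holds 1 value for the gene, so Ink4a and Arf cannot be told apart.

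Cdkn2b (ENSMUSG00000073802, chromosome 4, 89306299 to 89311039, minus strand, GRCm38) encodes Ink4b. Its values were 169.0, 292.9 and 415.3 in untreated and 241.9, 520.0 and 327.2 in tamoxifen libraries. These values look moderate, yet they stand on 1, 3 and 3 reads against 2, 8 and 7, with another possible solution in untreated replicate 2. The normalization weighted 1 Cdkn2b read by 5.30 to 21.4 times the library's median weight. On the log2 scale the tamoxifen group differed by 0.33 (95% interval -0.71 to 1.38, limma adjusted p 0.802), and -0.01 without untreated replicate 1. Reads summed over the groups were 7 and 17, a difference not detectable at this depth (log2 fold change on reads 0.88, 95% interval -0.76 to 2.52).

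Cdkn2c (ENSMUSG00000028551, chromosome 4, 109660876 to 109667189, minus strand, GRCm38) encodes Ink4c. Its values were 173.7, 182.8 and 171.8 in untreated and 192.8, 56.5 and 174.7 in tamoxifen libraries. Tamoxifen replicate 2 alone was low, on 2 reads, where the other libraries had 4 to 12. Its fitted log2 difference came to -0.50 (95% interval -1.75 to 0.75, limma adjusted p 0.77), and 0.06 without that library. No molecular identifiers are named in the labels, so reads may include copies of the same fragment.

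**Figure D4:**
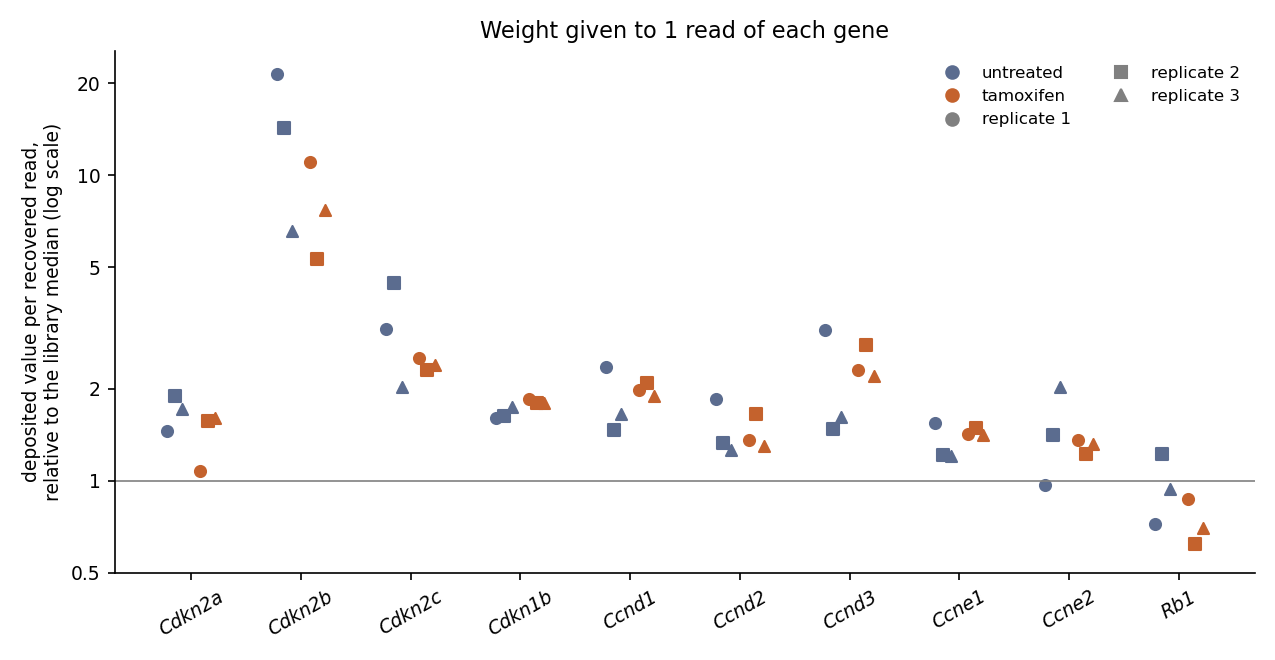
Deposited value per recovered read of each gene, divided by the median of that ratio over the genes of the same library (log axis), in all 6 libraries. Cdkn2b sits between 5.30 and 21.4, Rb1 lies below 1 in 5 of 6 libraries, and Ccne2 is highest in untreated replicate 3.

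Levels between genes were compared as RPM per kb of exon, from recovered reads. Exon length is the union over all annotated transcripts, and the order depends on it. Ccnd2, with a union of 9409 bases, averaged 17.0 reads a library, more than Cdkn2a, Cdkn2b or Cdkn2c. Ccne1 stood highest at 78.2 ± 19.0 (SD, n = 3) without and 56.4 ± 8.97 with tamoxifen, above Ccne2 in 6 of 6 libraries. Ccne2 followed at 23.8 ± 13.5 and 13.8 ± 4.71, Ccnd1 at 14.4 ± 3.45 and 14.5 ± 1.35, and Ccnd3 at 12.1 ± 4.48 and 13.0 ± 1.76. These 3 neighbours did not keep an order, since Ccne2 was above Ccnd1 in 3 of 6 libraries and Ccnd1 above Ccnd3 in 4. Cdkn1b came next at 7.39 ± 0.676 and 5.77 ± 1.07, below Ccnd3 in 6 of 6 libraries. Rb1 stood at 2.92 ± 0.772 and 6.40 ± 0.487, so Cdkn1b was above it in 4 of 6 libraries. Cdkn2a (1.47 and 2.30), Cdkn2b (0.695 and 1.15), Cdkn2c (0.664 and 0.636) and Ccnd2 (0.366 and 0.560) were lower than Rb1 in mean level in both groups. Rb1 was above Cdkn2a in 6 of 6 libraries, while the order among the lowest 4 varied.

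**Figure D5:**
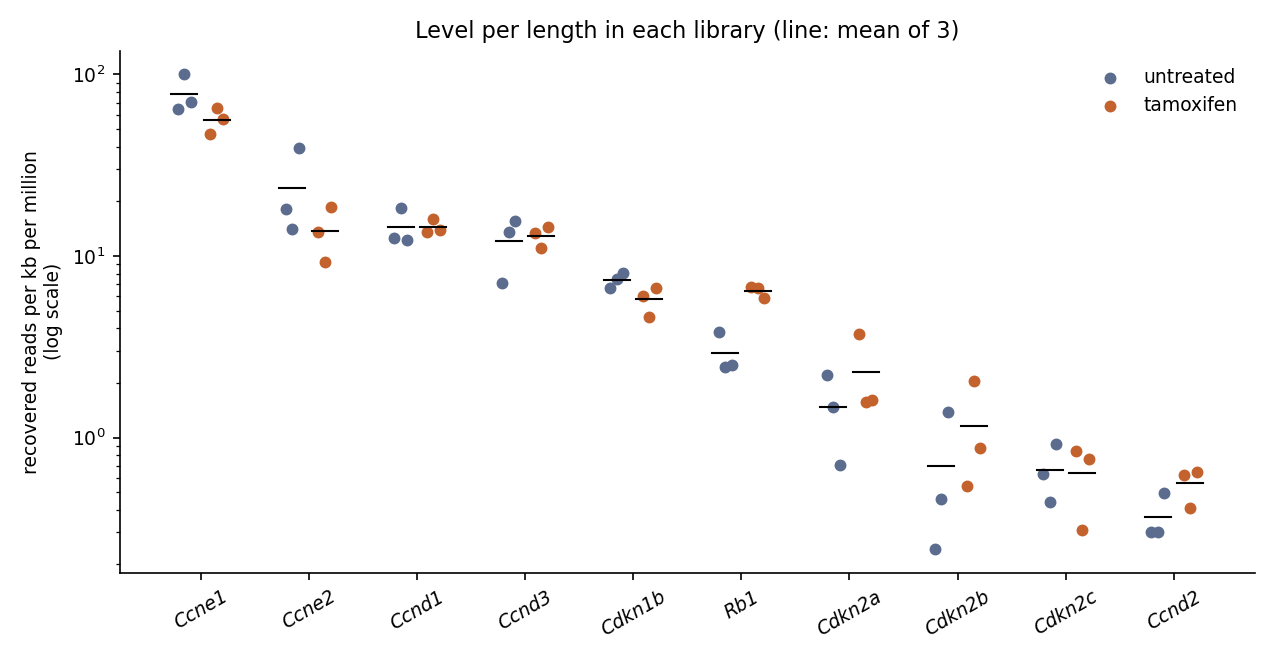
RPM per kb of exon, from recovered reads (log axis), of each gene in the 3 untreated and 3 tamoxifen libraries, ordered by the untreated mean, with a line at each group's mean. Ccne1 is the highest, from 47.2 to 99.9, and Rb1 moves from 2.92 in untreated to 6.40 in tamoxifen libraries.

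The rest of the pathway was read from lists of kinases, other inhibitors, pocket proteins, E2F factors, ubiquitin ligase genes, E2F targets, inputs to the D cyclins and Ink4/Arf, and locus neighbours. Of 67 such genes tested, 0 were called by limma, where 34 of 17427 genes were. An unadjusted p under 0.05 was found for 9, and for 1627 of the 17427. The median log2 fold change was -0.01 against -0.004 over all genes. Groups did not overlap for 8 genes that were higher and 4 that were lower after tamoxifen, where 7.92% and 7.33% of all genes did so, so these counts are near the background. With GC and length trends removed, 0 of 63 were called, where 30 of 11494 genes were.

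Around RB itself, the other pocket protein genes Rbl1 and Rbl2 differed by -0.17 and -0.24 on the log2 scale (limma adjusted p 0.756 and 0.772). Cdk6, a kinase partner of D cyclins, had values of 506.5, 409.2 and 369.5 against 234.0, 331.3 and 195.3 (log2 difference -0.78, limma adjusted p 0.485). On reads it was -0.34. Tfdp2, a dimer partner of E2F factors, had -0.48 (limma adjusted p 0.305), and -0.14 on reads. Cdkn1a, the p53-responsive inhibitor of Cdk2, had values of 1186, 670.9 and 1749 against 3219, 1964 and 2958, without overlap. This gave a log2 difference of 1.25 (95% interval 0.34 to 2.16, limma adjusted p 0.417). Cdkn1c, which encodes the related inhibitor Kip2, had 3625, 3229 and 3161 against 2854, 2744 and 2858, also without overlap and in the other direction (log2 difference -0.24, limma adjusted p 0.529, and -0.66 on reads). The E2F targets of S phase entry had a median of -0.07, with 0 of 18 called. On reads their median was -0.21, beside -0.02 over all genes. With GC and length trends removed it was -0.24, beside -0.01 over all genes, with 0 called. Among them Rrm2, a subunit of ribonucleotide reductase, had 0.16, and 0.09 on reads. Pcna, the sliding clamp of DNA polymerase, had -0.33, and -0.48 on reads.

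The inputs to D cyclins and the Ink4/Arf locus held 5 of 11 genes whose tamoxifen values all lay above the untreated ones, and 1 whose values lay below, beside 7.92% and 7.33% of all genes. Their median log2 fold change was 0.57, and 0 were called. Because this list was chosen with earlier results of these data known, the excess is no independent evidence. Id1, an inhibitor of the Ets factors that act on Ink4a, had values of 3284, 3180 and 2555 against 5095, 6477 and 4883 (log2 difference 0.86, limma adjusted p 0.176). Tbx3, a T-box repressor of Arf, had 0.89 (limma adjusted p 0.213), and Ets2, an Ets factor, 0.57 (adjusted p 0.417). Hmga2, a chromatin protein known to lower Ink4a and Arf, had 88.3, 49.5 and 78.2 against 117.4, 486.9 and 409.4 (log2 difference 2.02, limma adjusted p 0.417, and 1.31 on reads). The Polycomb genes of the list went in different directions, with Bmi1 at 0.70 (limma adjusted p 0.439) and Cbx7 at -0.19 (limma adjusted p 0.629), neither of them called. Next to the Ink4/Arf locus, Mtap had 0.23 and Klhl9 0.09 (limma adjusted p 0.646 and 0.768).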

How the data were processed

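Total RNA of 6 libraries, 3 untreated and 3 tamoxifen, was depleted of ribosomal RNA with Ribo-Zero Gold and made into directional libraries, per the labels' protocols. The authors deposited 1 table of a normalized signal for each gene and library. TopHat2, bedtools, DESeq2 and the build mm9 are named in the submitters' processing notes, without versions; annotation, strand use and counting rule are not given in the sources used here. The signal is not a read count divided by 1 factor per library, so it was not given to a count test. Its m had nearly the same distribution in all 6 libraries (largest difference of sorted m 4), as a quantile normalization gives. Reads (k) were recovered from the form of the values: 98.8% of 100305 values above 0 had 1 solution, with a largest relative misfit of 5.11e-15, and ambiguous values were resolved from the same gene in other libraries or by the ratio nearest 1. For the 10 genes 2 values had more than 1 solution, Cdkn2a in tamoxifen replicate 3 and Cdkn2b in untreated replicate 2. That k is the read count is inferred.

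Log2(value + 1) was tested with limma 3.58.1 (R 4.3.3) with an expression trend, over 17427 genes of mean value at least 10, with Benjamini-Hochberg adjustment. The added 1 shrinks changes of low genes. Shares were compared with an exact permutation test computed with numpy 2.4.6 (Python 3.11.15). On simulated data this limma fit returned fold sizes well but called few of the changed genes and made mostly false calls. It recovered more when limited to genes with 10 reads or more; a gene left uncalled is therefore not shown to be unchanged. Reads were scaled by a trimmed mean of ratios (30% of ratios and 5% of levels trimmed at each end).

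Ensembl identifiers were looked up in GENCODE vM21 (GRCm38) for coordinates, exon lengths and GC content, while the submitters' notes name mm9. Promoters come from RefSeq on GRCm38.p6. The genes named are the 10 members and, from each other list, up to 4 genes of smallest p. Those printed from a list are a selection of these, and Bmi1, Cbx7, Dab2 and the overlapping genes LTO1, Rcbtb2, Lpar6 and Ints8 are named outside that rule, after their values were seen. The members and lists were chosen with earlier results of these data known. Alternatives were the pseudocount, filters, scaling, recovered reads, a replicate block and each library left out. Whether same numbers pair the libraries is not known. Deviations from the group means correlate at -0.01, -0.044 and 0.011 over 11841 genes for same-numbered libraries. For differently numbered ones they range from -0.078 to 0.084, so these correlations cannot decide it.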

Additional observations from a re-analysis of the deposited data

How the results depend on the processing

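On the deposited values no setting called any of the 10 genes. Rescaling these values could change little, because m already had nearly the same distribution in every library. Calls over all genes numbered 34 and changed to 52 with a pseudocount of 10 or with no filter, 15 among genes with 10 reads or more, 5 on recovered reads and 66 to 103 with a library left out. With a replicate block 0 genes were called and Rb1 differed by log2 0.78 (limma adjusted p 0.564), and the block changed no other call among the 10. With GC and length trends removed, 1 of the 10 was called, Rb1 at 1.07. On recovered reads 1 gene, not 3, separated the groups. With single libraries left out, Rb1 ranged from 0.62 to 0.88 and Ccnd3 from 0.41 to 0.59. The directions of Cdkn2a (-0.02 to 0.86), Cdkn2b (-0.01 to 0.63) and Cdkn2c (-0.82 to 0.06) each turned with 1 library: untreated replicate 3, untreated replicate 1 and tamoxifen replicate 2. The cause was not tested. The other 7 genes kept their direction under every alternative run. Depth limits the 3 Ink4 genes, which average 8.5, 4.0 and 6.33 reads a library.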

Other observations

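Skp1a, the adaptor of the ubiquitin ligase that degrades cyclin E and Kip1, varied more between untreated libraries than between groups. Its deposited values were 27.4, 1041 and 951.9 in untreated and 36.3, 47.3 and 19.5 in tamoxifen libraries, on 1, 123 and 34 reads against 1, 2 and 2. Untreated replicate 1 lay with the tamoxifen libraries, so the groups overlapped (limma adjusted p 0.551).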
